A study of Mus musculus and Ictidomys tridecemlineatus with 36 samples.

Results

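The regions described here were all 62930 peaks of H3K27ac over IgG in the retina of mice at postnatal day 2 (P2), out of 532904 peaks in the 10 peak lists of the series. The list had been called by the authors on 2 H3K27ac libraries together, with 2 IgG libraries as control, so a peak had 1 value for the pooled libraries and no value per replicate. Each of these 4 libraries came from 385000 nuclei of retinas pooled from 3 mice, and none carried a transgene or treatment that the labels or methods name. The strain and the sex of the animals were not given in the sources used here. The series held 36 CUT&RUN libraries from mouse and thirteen-lined ground squirrel (13LGS) retina, and the mouse lists of H3K4me3, H3K4me1, Otx2 and Neurod1 were used here for comparison. With no replicate values no test was possible, and every comparison below is a description of 1 pooled list. The nuclei were those of whole retinas, so few cells with much acetylation and many cells with little could not be told apart.

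H3K27ac is acetylation of a lysine in the tail of histone H3, written mainly by the acetyltransferases Ep300 and Crebbp. It marks the nucleosomes that flank active promoters and active enhancers, while H3K4me3 is concentrated at promoters and H3K4me1 spreads over enhancers whether or not they are active. At P2 the mouse retina still holds dividing progenitors, and rods, bipolar cells and Müller glia are being born. In CUT&RUN an antibody tethers micrococcal nuclease to the mark, and the released fragments are sequenced. IgG, which binds no particular mark, gives the background.

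The DNA under the strongest summits is shown first, because the remaining results refer to it. The windows hold 299 bases of the plus strand of GRCm38, centred on the base where the fragment pile-up was highest. Capitals mark matches to any of 11 short motifs on either strand, which are spelled out with their shares further below. The first 2 are among the 3 distal peaks of highest fold, more than 1000 bp from every coding start site, and the last 2 are the proximal peaks of highest fold.

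Atg10 intron, nearest start Rps23, chr13:90958198-90958496: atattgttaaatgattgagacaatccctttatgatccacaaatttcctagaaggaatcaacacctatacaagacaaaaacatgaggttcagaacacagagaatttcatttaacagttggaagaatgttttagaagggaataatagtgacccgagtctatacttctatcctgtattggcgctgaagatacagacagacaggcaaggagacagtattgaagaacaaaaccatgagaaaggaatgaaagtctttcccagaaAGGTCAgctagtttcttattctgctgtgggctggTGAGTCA

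Lrrc49 intron, chr9:60626640-60626938: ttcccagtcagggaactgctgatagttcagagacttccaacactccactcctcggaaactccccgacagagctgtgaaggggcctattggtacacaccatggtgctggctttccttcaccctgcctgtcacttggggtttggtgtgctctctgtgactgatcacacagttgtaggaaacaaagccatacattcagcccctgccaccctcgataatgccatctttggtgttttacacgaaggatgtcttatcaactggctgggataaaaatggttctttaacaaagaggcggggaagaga

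Zfp385a, chr15:103333304-103333602: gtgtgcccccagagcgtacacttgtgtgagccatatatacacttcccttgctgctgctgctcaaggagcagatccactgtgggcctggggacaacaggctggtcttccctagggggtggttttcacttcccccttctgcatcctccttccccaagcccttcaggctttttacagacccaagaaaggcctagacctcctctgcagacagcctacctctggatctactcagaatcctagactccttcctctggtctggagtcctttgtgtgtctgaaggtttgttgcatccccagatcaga

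Ankrd28, chr14:31781040-31781338: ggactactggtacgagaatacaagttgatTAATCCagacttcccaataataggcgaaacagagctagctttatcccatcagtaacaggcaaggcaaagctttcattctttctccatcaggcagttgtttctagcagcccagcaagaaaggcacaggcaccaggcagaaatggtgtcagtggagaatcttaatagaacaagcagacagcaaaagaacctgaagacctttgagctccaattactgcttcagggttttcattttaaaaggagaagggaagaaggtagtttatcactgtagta

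The window in the Atg10 intron held a nuclear receptor match and an AP-1 match, both in its outer part, and the Ankrd28 window held 1 OTX/CRX match. The other 2 windows held none of the 11 motifs. Windows of 101 bases centred on the summit of the strongest Otx2 peak inside an acetylated region are shown for regions near 4 retinal genes, 1 from each of 4 gene lists. The summits of these acetylated regions lay 6727 bp from the gene's own nearest start for Prdm1, 17473 bp for Gngt1, 5415 bp for Six3 and 14030 bp for Dkk3. The Gngt1 region lies outside the gene, which spans chr6:3993792-3997436, and the others lie at least partly inside theirs. Prdm1 is a repressor that separates the photoreceptor from the bipolar fate, and Gngt1 is the gamma subunit of rod transducin. Six3 and Dkk3 are a progenitor homeobox factor and a secreted protein of Müller glia.

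Near Prdm1, chr10:44464558-44464658: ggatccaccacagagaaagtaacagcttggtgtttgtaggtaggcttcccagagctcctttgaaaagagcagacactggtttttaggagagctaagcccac

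Near Gngt1, chr6:3975951-3976051: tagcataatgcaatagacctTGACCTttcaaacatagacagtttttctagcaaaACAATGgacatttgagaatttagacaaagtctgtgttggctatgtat

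Near Six3, chr17:85615201-85615301: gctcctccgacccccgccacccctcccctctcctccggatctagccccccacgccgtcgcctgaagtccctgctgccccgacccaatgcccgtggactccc

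Near Dkk3, chr7:112144595-112144695: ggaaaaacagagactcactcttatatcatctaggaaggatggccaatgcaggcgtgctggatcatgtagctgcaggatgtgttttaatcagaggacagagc

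The Gngt1 window held a nuclear receptor match on the minus strand and a SOX match, and the other 3 held none of the motifs. The GC content of these windows was 33.7% for Gngt1, 46.5% for Dkk3, 48.5% for Prdm1 and 73.3% for Six3. The Otx2 peaks they centre on had folds of 10.8 near Gngt1, 9.30 near Prdm1, 6.77 near Dkk3 and 5.01 near Six3.

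Most H3K27ac peaks were narrow and only a few-fold above IgG. The fold enrichment at the summit ranged from 1.57 to 23.1, with a median of 3.36, and 90% of the peaks lay at or below 5.05. The width ranged from 213 to 20639 bp, with a median of 432 bp, and 57.6% of the peaks were shorter than 500 bp. Together the peaks covered 44.0 Mb, or 1.61% of the chromosomes. The stronger peaks were also the wider ones. Peaks with a fold under 3 had a median width of 332 bp, those with a fold of at least 5 and under 7 had 1392 bp, and the 18 peaks with a fold of 15 or more had 4209 bp. Across the peaks, fold and width had a Spearman correlation of 0.51 (n = 62930 peaks, which share the same libraries). The 3401 peaks of at least 2000 bp made up 5.40% of the list and held 24.9% of its bases.

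**Figure D1:**
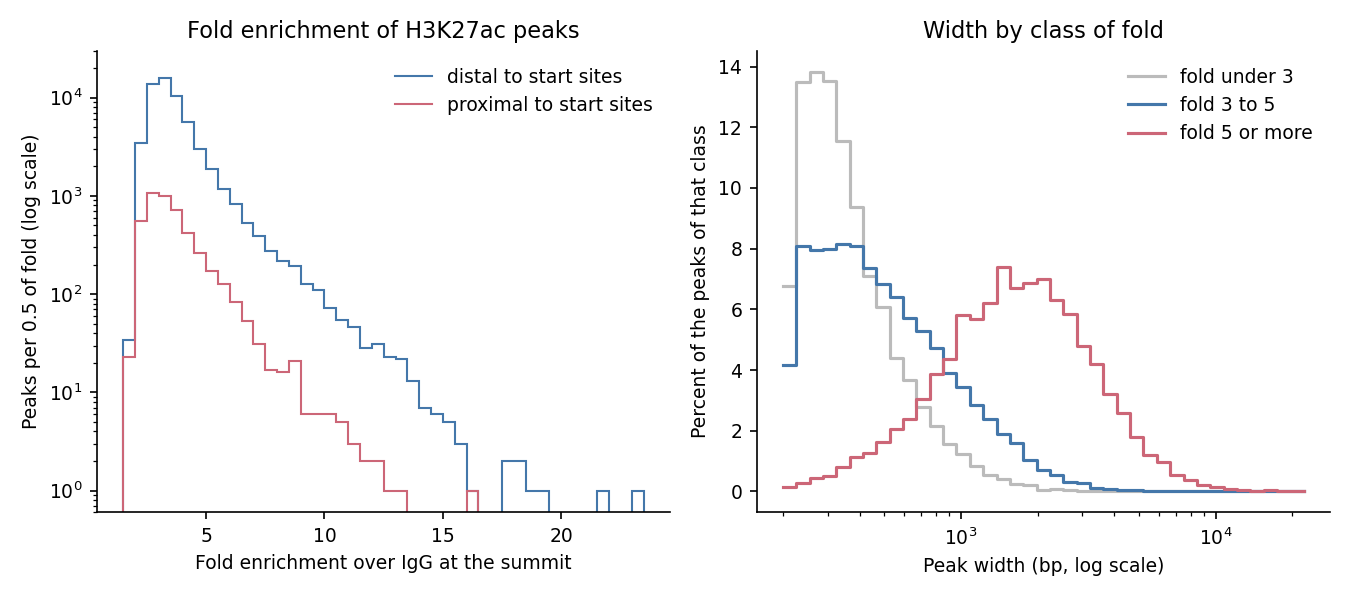
Left, number of H3K27ac peaks per 0.5 of fold enrichment over IgG (log scale), for peaks distal to and proximal to coding start sites. Right, percent of peaks by width (log scale) in 3 classes of fold; the median width rose from 332 bp at a fold under 3 to 1392 bp at a fold of 5 to 7.

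The fold and the p-value of a peak together gave back the number of fragments that overlapped its summit. For all 62930 peaks that number came out whole (within 0.001 on the −log10 p scale). The median was 17 fragments, with a range of 10 to 171, against a median of 4.42 expected from IgG or from the genome-wide mean. The genome-wide mean was 3.17 fragments per base, and 11.1% of the peaks had been compared with it because the local IgG level was lower. 62.9% of the peaks rested on fewer than 20 fragments and 1331 peaks on 50 or more. A peak of the median fold, 3.36, with 13 fragments had an exact 95% Poisson interval of 1.90 to 5.58. Its fragments were fewer than the median of 17, and at the same fold more fragments give a narrower interval. The quartiles of fold, 2.91 and 4.02, lay well inside this one, so that peaks near the middle of the list cannot be ranked against each other. These intervals cover the counting error of the H3K27ac fragments only, not that of IgG and not the spread between animals.

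Acetylation in the P2 retina lay mainly away from start sites. A summit was called proximal when it lay within 1000 bp of the start of any protein-coding transcript in GENCODE M21 (54361 starts of 21853 genes). By that rule 4604 peaks (7.32%) were proximal and 58326 were distal, a distal share of 92.7% (95% Wilson interval 92.5% to 92.9%). That interval treats the peaks as independent, although they share the same libraries and many stand close together. It does not cover the spread between animals or the choice of distance rule. Bases within 1000 bp of a start made up 2.37% of the chromosomes. The median distance from a summit to a start was 41665 bp, 79.0% of the summits lay over 10 kb away, and 30.4% lay over 100 kb away. The other mouse lists differed widely from this. H3K4me3 summits were 81.0% proximal, Otx2 summits 38.5%, Neurod1 summits 21.7% and H3K4me1 summits 9.96%.

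**Figure D2:**
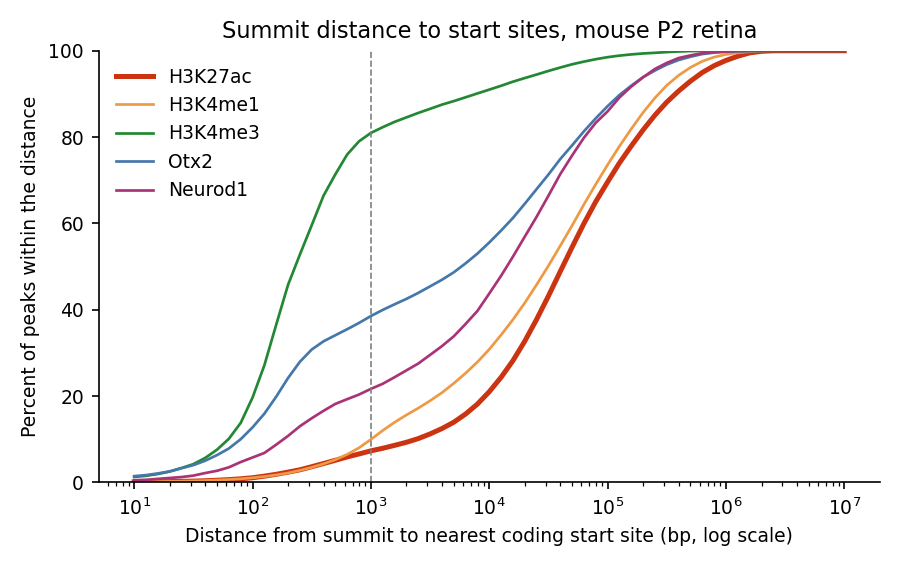
Percent of the summits of each mouse list that lie within a given distance (bp, log scale) of the nearest coding start site; the dashed line is at 1000 bp. The H3K27ac curve stays lowest beyond 1000 bp and reaches 7.32% there, against 81.0% for H3K4me3.

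By gene structure, 36508 summits (58.0%) lay in introns of coding genes and 19753 (31.4%) between coding genes. Another 1133 lay in 3′ untranslated regions, 905 in coding exons and 27 in 5′ untranslated regions outside the proximal windows. The median fold was 3.32 for proximal and 3.36 for distal peaks, and it was 3.36 also for the 4448 peaks more than 500 kb from any start. The share of peaks with a fold of at least 7 was 2.56% for proximal summits, 3.61% between 1 and 5 kb from a start and 1.73% beyond 500 kb. Width fell with distance, from a median of 502 bp at proximal summits to 355 bp beyond 500 kb. Proximal peaks had more fragments at the summit than distal ones, with medians of 23 and 17, and also a higher expected level, with medians of 6.08 and 4.30. The expected level thus moved with the distance to a start, and its part in the proximal share was not tested.

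The strongest distal peaks lay in introns or in intergenic DNA, 7 of the 10 in clusters of 10 or more peaks that stood at most 10 kb apart. The highest fold of all was 23.1 (interval 19.1 to 27.6, 118 fragments), in a region of 8054 bp at chr13:90956127-90964180 within an intron of Atg10, which encodes an autophagy enzyme. The nearest start, that of the ribosomal protein gene Rps23, lay 35389 bp away. A region of 5217 bp whose nearest start was that of Sh3bgrl2 had a fold of 21.7 (17.8 to 26.2, 106 fragments). It overlapped both an Otx2 peak (fold 6.07) and a Neurod1 peak (fold 4.43). An intron of Lrrc49 held a region of fold 19.4 (16.2 to 23.1) and 6646 bp, with Neurod1 at a fold of 6.92 and Otx2 at 4.02. The intervals of these 3 overlapped, so their order is not resolved by the fragment counts.

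The next peaks lay in or near genes of varied function. An intron of Adgrv1, the adhesion receptor that is mutated in a form of Usher syndrome, held a peak of fold 18.7 and 7242 bp with neither Otx2 nor Neurod1. An intron of Rnf216 held one of fold 18.05, whose nearest start was that of Fscn1, an actin-bundling protein. Peaks inside Rasa3, a GTPase-activating protein, and Pcbp3, an RNA-binding protein, had folds of 18.03 and 17.77, and both overlapped Otx2 and Neurod1. The Pcbp3 summit had the largest pile-up of the 10, with 154 fragments. The coat colour gene a (nonagouti) held one of fold 17.5 in only 1471 bp. Intergenic peaks near Clec2g (16.1) and the G-protein regulator Rgs3 (15.7) completed the 10. All 10 overlapped H3K4me1, 8 overlapped Otx2, 4 overlapped Neurod1 and 1, near Clec2g, overlapped H3K4me3.

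The highest fold was lower among the 4604 proximal peaks than among the 58326 distal peaks, a much larger set. The upper parts of the 2 sets were close. The 95th percentile of fold was 6.16 for proximal and 6.04 for distal peaks, and the 99th percentile 8.69 and 8.93. The highest proximal fold was 16.3 (13.7 to 19.3, 131 fragments) over 9026 bp at Zfp385a, a zinc finger gene, with the summit 874 bp downstream of a start. Ankrd28 (13.2), the amino acid transporter gene Slc38a3 (12.6), the phospholipase gene Plch1 (12.2) and the LIM-domain gene Csrp2 (12.2) followed, and then Asph (11.96), Ccdc13 (11.6), Cpsf4l (11.4), Mrln (11.3) and the RNA-binding protein gene Celf2 (11.04). H3K4me3 was called at 4 of the 10, namely Zfp385a, Ankrd28, Plch1 and Celf2. All 10 overlapped H3K4me1, and 8 overlapped Otx2, the strongest at Csrp2 with an Otx2 fold of 9.51 and a Neurod1 fold of 7.15.

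The 10 widest regions spanned 12460 to 20639 bp and had folds of 4.83 to 13.6. The widest lay in Ccdc85c (20639 bp, fold 7.69), followed by one in Dhx32 whose nearest start was that of Uros (17268 bp) and one in Map7, a microtubule-binding protein (16436 bp, fold 13.6). Others lay beside Trmt61a, in Nrf1, in Tspan14, in the clock gene Arntl and in Shld1. The region near Cypt12, 13843 bp long, was 161271 bp from any coding start. The region of 13482 bp that covered the start of Six3, chr17:85605698-85619179, was the only one of the 10 that lay at a gene of the progenitor list. All 10 widest regions overlapped Otx2, and 9 overlapped Neurod1, the exception being that at Six3. The region in Shld1 had the highest Otx2 and Neurod1 folds among them, 15.8 and 9.57.

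The 100 peaks of highest fold, all at 12.4 or above, differed from the whole list in the marks and factors on them. All 100 overlapped H3K4me1, against 58.9% of all peaks. Otx2 lay on 80.0% of them against 16.6%, Neurod1 on 19.0% against 3.90%, and H3K4me3 on 14.0% against 7.57%. They were 97.0% distal against 92.7% of all peaks, and 68.0% lay in introns against 58.0%. Wide peaks have more room for an overlap, and the median width of the 100 was 4220 bp against 432 bp.

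When the list was divided by fold into 10 equal groups, of which group 1 was the lowest, the overlaps did not rise evenly: they were lower in group 4 than in group 1 and higher in group 10 than in group 4. H3K4me1 overlapped 52.4% of the peaks in group 1, 44.4% in group 4 and 95.9% in group 10. Otx2 went from 16.8% through 8.74% to 47.0%, and Neurod1 from 2.96% through 1.73% to 14.0% in the same groups. H3K4me3 was at 12.4% in group 1 and at 11.6% in group 10, with 4.99% in group 4. Proximal peaks made up 12.4% of group 1, 5.47% of group 4 and 8.60% of group 10. The median width went from 335 bp in group 1 to 1705 bp in group 10. Peaks without any of the 4 marks and factors numbered 24746 (39.3%), and their median fold was 3.13 against 3.57 for the others. They made up 54.2% of group 4 and 3.40% of group 10.

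**Figure D3:**
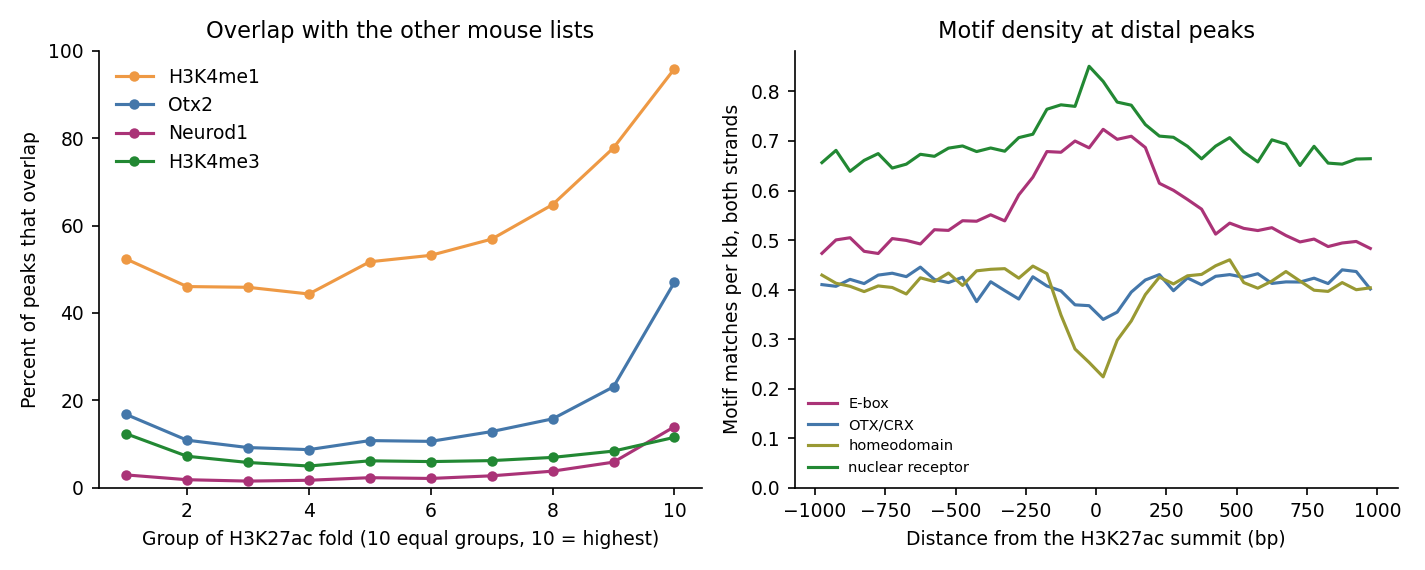
Left, percent of H3K27ac peaks that overlap each other mouse list by at least 1 bp, in 10 equal groups of H3K27ac fold; H3K4me1 reaches 95.9% and Otx2 47.0% in group 10. Right, matches per kb of 4 motifs around the summits of the 58326 distal peaks in bins of 50 bp; E-box and nuclear receptor matches are densest near the summit, where OTX/CRX and homeodomain matches are sparsest.

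Proximal and distal peaks kept different company. H3K4me3 lay on 74.6% of the proximal and on 2.28% of the distal peaks, Otx2 on 71.5% and 12.3%, H3K4me1 on 71.9% and 57.9%, and Neurod1 on 9.14% and 3.48%. Among distal peaks, those with Otx2 had a median fold of 4.25 and a median width of 1057 bp, and those without had 3.31 and 397 bp. Seen from the other lists, H3K27ac lay on 29.0% of the H3K4me3 peaks, 21.5% of the H3K4me1 peaks, 36.2% of the Otx2 peaks and 52.3% of the Neurod1 peaks. When the H3K4me3 peaks were divided into 5 equal groups by their own fold, 19.8% were acetylated in the lowest group and 50.6% in the highest. Where an acetylated peak overlapped Otx2 with the summits within 2000 bp of each other (10383 peaks), the median distance between the summits was 236 bp, and 31.4% were within 100 bp.

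Peaks stood in groups along the chromosomes. The median gap to the next peak was 6384 bp and the mean gap was 39879 bp. Equal spacing over the chromosomes would give 43310 bp. Peaks placed at random would also stand close together in places, and values for such a placement were not computed for the gaps and shares given here. 23.1% of the gaps were 1000 bp or less, and 9.75% exceeded 100 kb. Peaks separated by at most 10 kb were joined into clusters. By that rule 75.0% of the peaks belonged to 11214 clusters of 2 or more, and 15714 stood alone. 785 clusters held 10 or more peaks, 14352 peaks in all (22.8%), over a median span of 45172 bp. The summits in these large clusters were intronic in 82.15% of cases, against 39.65% of single peaks. Otx2 overlapped 10.8% of the peaks in these clusters and 22.2% of single peaks. Over the whole list it lay on 71.5% of proximal and 12.3% of distal peaks. The part of start-site distance in the difference between clustered and single peaks was not tested. The median fold was 3.425 in these clusters and 3.31 for single peaks. In the H3K4me1 list, which is larger, 23.2% of peaks fell in clusters of 10 or more. The share was 1.71% for Otx2 and 0.114% for H3K4me3, and 26.8% in the 13LGS H3K27ac list of 93999 peaks. These lists differ in size, and the part of size in the shares was not tested.

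The largest clusters lay over long genes. Srgap3, a GTPase-activating protein of the Slit-Robo pathway that guides axons, held the cluster with the most peaks, 105 over 241523 bp (chr6:112719325-112960847). Peaks covered 51.5% of it, with a median fold of 3.47 and a maximum of 8.70. Only 6 of its 105 peaks overlapped Otx2 and 1 overlapped Neurod1, while 58 overlapped H3K4me1, and none was proximal. Plch1 followed with 85 peaks over 187326 bp, 49.7% of it covered and with a highest fold of 12.4. Cdh2, which encodes N-cadherin, the adhesion molecule of the neural epithelium, had 83 peaks. The chromatin remodeller gene Chd7 and the mTOR complex gene Rptor had 69 each, and Msi2, an RNA-binding protein of neural stem cells, had 66. Cep128 (59), Zfat (58), the nuclear receptor coactivator gene Ncoa2 (58) and Sorcs2 (56), whose span contains the short gene Psapl1, completed the 10. In the Chd7 and Msi2 clusters 59 of 69 and 59 of 66 peaks overlapped H3K4me1, and in those of Rptor and Cep128 only 15 of 69 and 10 of 59 did.

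Ranked by the sum of fold times width in kb, 5 of these 10 clusters stayed among the 10 highest. Srgap3 (583) and Plch1 (581) led again, followed by the cluster over and beyond Sh3bgrl2 that holds the peak of fold 21.7 (523, with 51 peaks, 14 of them overlapping Otx2). Epb41l2, a membrane skeleton gene, Nrf1, the thymocyte HMG-box gene Tox and Lrrc49 were the others that entered. In the Nrf1 cluster 29 peaks covered 66.3% of 89536 bp, the highest share of the group. Per length, the genes of these clusters reached 189 peaks per Mb (Sorcs2) to 445 per Mb (Srgap3), leaving aside Psapl1, which held none. The median over all 2492 coding genes of at least 100 kb was 23.1 peaks per Mb, with a 99th percentile of 314, and 384 of those genes held no peak. The genes of the clusters were picked by peaks or signal in this same list, so a high density followed from the choice. Sh3bgrl2, at 90.5 kb, is shorter than the genes of that comparison.

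**Figure D4:**
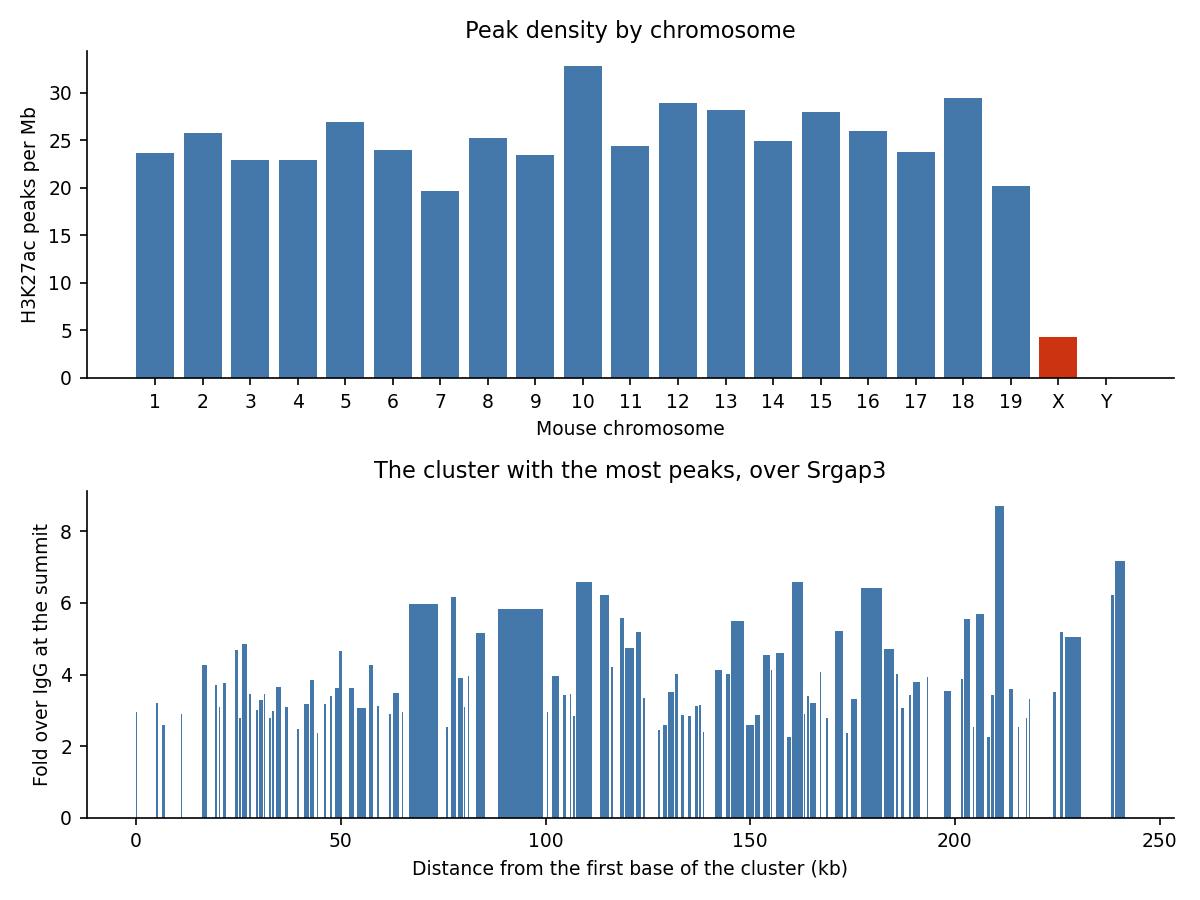
Top, H3K27ac peaks per Mb on each mouse chromosome; autosomes lie between 19.6 and 32.8 and X is at 4.34. Bottom, the 105 peaks of the cluster over Srgap3, drawn to scale from its first base (kb), with the height of a bar giving the fold over IgG at the summit and its width the peak's width.

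The density per chromosome varied 1.67-fold among autosomes, from 19.6 peaks per Mb on chromosome 7 to 32.8 on chromosome 10, and was far lower on the sex chromosomes. Across the 19 autosomes the density ran against that of coding genes (Spearman correlation −0.51, given as a description). X held 743 peaks, 4.34 per Mb against 25.25 on the autosomes, a ratio of 0.172. The same ratio was 0.521 for H3K4me3, 0.371 for H3K4me1, 0.283 for Otx2 and 0.141 for Neurod1, so that a lower density on X was seen in all 5 mouse lists. The X peaks had a median fold of 3.60 and 16 fragments at the summit, against 3.36 and 18 on the autosomes. Their median expected level was 3.17 fragments, the genome-wide mean that serves as the floor, against 4.43 on the autosomes. Y held 1 peak. The number of X chromosomes in the pools was not given, and its part in these values was not tested.

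Windows of 1 Mb showed the same unevenness on a larger scale. Among 2625 windows the median was 18 peaks, 194 windows (7.39%) had none, and the variance was 21.2 times the mean. The richest 10% of windows held 30.9% of the peaks. The richest window, chr12:91000001-92000000, had 184 peaks and holds Cep128, Tshr, Gtf2a1, Ston2 and Sel1l. The next had 175 peaks on chromosome 10, with Rhobtb1, A930033H14Rik, Cdk1 and the ankyrin gene Ank3, and 156 on chromosome 13, with Adgrv1 and its neighbours.

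Start sites of protein-coding genes carried H3K27ac in 19.5% of cases, when a peak had to overlap the 1000 bp on either side of any start (4259 of 21853 genes). Among the 12137 genes with H3K4me3 at a start, 32.4% were also acetylated there, and among those without H3K4me3 the share was 3.38%. The fold given for a start is that of the strongest peak that overlaps its window, and the summit of such a peak can lie further away. It was within 1000 bp of a start of the same gene for 3834 of the 4259 genes (90.02%). The lists that follow were chosen with earlier results of these data known, and their counts are read beside these shares, with no test.

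Transcription factors of photoreceptor precursors carried the mark at most of their starts. Of 11 factors 9 had a peak (81.8%), and all 9 also had H3K4me3 and Otx2 there. This was not particular to them. The acetylated starts of the housekeeping genes Actb, Gapdh, Eef1a1, Tubb5 and Hspa8 had both as well. Over all proximal H3K27ac peaks, H3K4me3 lay on 74.6% and Otx2 on 71.5%. The highest folds were at Rorb, a nuclear receptor required for rod fate (6.55, 31 fragments), and at Crx, the cone-rod homeobox factor (5.85, 50 fragments, 5665 bp wide). Otx2, the factor above Crx, had 4.75, and Nrl, the determinant of rods, had 4.28. Casz1 had 3.99, Neurod1 3.55, Nr2e3, the repressor of cone genes in rods, 3.01, Mef2d 2.92 and Prdm1 2.53. Neurod1 lies inside the annotated gene Cerkl, so its peak can be assigned to either. Samd7 and Esrrb had none. Further peaks surrounded these genes, with 55 within 50 kb of a Rorb start and 45 around Casz1. The list's median was 7 peaks within 50 kb, against 1 for all coding genes. The summits at Crx, Nr2e3, Casz1 and Mef2d lay 1160 to 1569 bp from a start. Stronger peaks than that at the start lay 6727 bp from a start of Prdm1 (fold 9.71, 64 fragments) and 42240 bp from that of Neurod1 (8.53).

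Rod phototransduction genes were marked in 6 of 14 cases. Pde6b, a rod phosphodiesterase subunit, had the highest fold (4.76, summit 1308 bp from a start), followed by phosducin, Pdc (4.56). The membrane proteins of the disc rim, Prph2 and Rom1, had 4.01 and 1.93. Gnb1 and Gngt1 were at 3.11 and 2.80. Gnat1, Pde6a, Pde6g, Cnga1, Cngb1, Sag, Rcvrn and Rp1 had none at a start, although 5 of these 8 had H3K4me3 there. Around Gnat1, 22 peaks lay within 50 kb, among them the one at Slc38a3 of fold 12.6.

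Cone genes were marked in 3 of 13 cases (23.1%), close to the 19.5% of all coding genes. Cngb3 (4.08, summit 1168 bp from a start), the cone channel subunit, Rxrg (3.00), a nuclear receptor of cones, and Gnb3 (2.95), the cone transducin beta subunit, had peaks. Both cone opsins, Opn1sw and Opn1mw, had none, nor had Arr3, Gnat2, Gngt2, Pde6c, Pde6h, Cnga3, Sall3 or Thrb. Thrb, the thyroid hormone receptor that specifies M cones, had 21 peaks within 50 kb of a start, the strongest at 6.85 and 41771 bp away. The Thrb gene held 37 peaks, and with start windows of 2000 bp Thrb was also marked at a start. For 7 of the 13 genes no peak lay within 50 kb of a start.

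Progenitor factors had a peak overlapping the start window in 12 of 16 cases (75.0%), with a median fold of 5.005 against 3.49 over all acetylated starts. The summit was within 1000 bp of a start for 8 of the 12, whose median was 4.65 against 3.43 over all genes with such a summit. The peaks of highest fold reached over the start from summits further away. They were those of Six3 (12.8, 84 fragments, summit 5415 bp from a start), Nfib, a nuclear factor I gene of late progenitors (10.8, 67 fragments, 1559 bp), and Six6 (9.61, 5060 bp). Pax6, the eye field factor, was at 8.63. Rax was at 5.67, Nfix at 5.31, Fgf15 at 4.70, Lhx2 at 4.61 and Sox2 at 3.02. Ccnd1 (2.62), Hes5 (2.56) and Notch1 (2.20) were lower, but Notch1 had 24 peaks within 50 kb, with one of fold 8.56 and 72 fragments 4031 bp from a start. Sox9, Hes1, Sfrp2 and Nfia had none, while H3K4me3 was present at all 16.

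Neurogenic genes had a peak at 8 of 11 starts, with low folds. Btg2, an antiproliferative gene, was the highest (5.08, summit 2594 bp from a start), and Neurod4 followed (3.96). Dll3 was at 3.57, Gadd45a at 2.85, Hes6 at 2.79, Insm1 at 2.69, Atoh7, which specifies ganglion cells, at 2.68 and Dll1 at 2.38. Neurog2, Olig2 and Dll4 had none at the start and 1 to 6 peaks within 50 kb. A peak of 74 fragments and a fold of 9.23 lay 13984 bp from the Btg2 start, and one of 89 fragments and a fold of 7.71 lay 2314 bp from that of Hes6.

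Müller glia genes were marked at 8 of 11 starts. Rlbp1, the retinaldehyde-binding protein, had the highest fold (8.999, 3977 bp), followed by carbonic anhydrase Car2 (7.20, 4865 bp), the water channel Aqp4 (5.41) and Vim (5.19). The summits of the peaks at Aqp4, Vim and Dkk3 lay 1258, 1358 and 1486 bp from a start. Dkk3 was at 3.98, Apoe at 3.74, Glul at 3.00 and the glutamate transporter Slc1a3 at 2.92. Aqp4 was the only one of the 8 without H3K4me3 at a start. Clu, Kcnj10 and Abca8a had none.

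Among genes of inner retinal neurons, none of 9 bipolar genes and none of 13 ganglion cell genes had H3K27ac at a start (95% Wilson upper limits 29.9% and 22.8%, both of which include the 19.5% of all coding genes). H3K4me3 was present at 9 of the 13 ganglion cell genes. Among 14 amacrine and horizontal cell genes, Gad2, which makes GABA (5.05), and Prox1, a horizontal cell factor (2.19), were marked (14.3%, interval 4.01% to 39.9%), and 12 had H3K4me3. With start windows of 2000 bp 4 of the 14 were marked. No peak lay within 50 kb of a start for 8 ganglion cell genes, among them Pou4f2 and Isl1, and for 9 amacrine and horizontal genes, among them Ptf1a, Tfap2a, Tfap2b and Onecut1. Foxn4, the factor of amacrine and horizontal precursors, had 18 peaks within 50 kb but none at the start. Within 50 kb of a start, the bipolar homeobox genes Vsx1 and Lhx4 had 1 and 5 peaks.

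**Figure D5:**
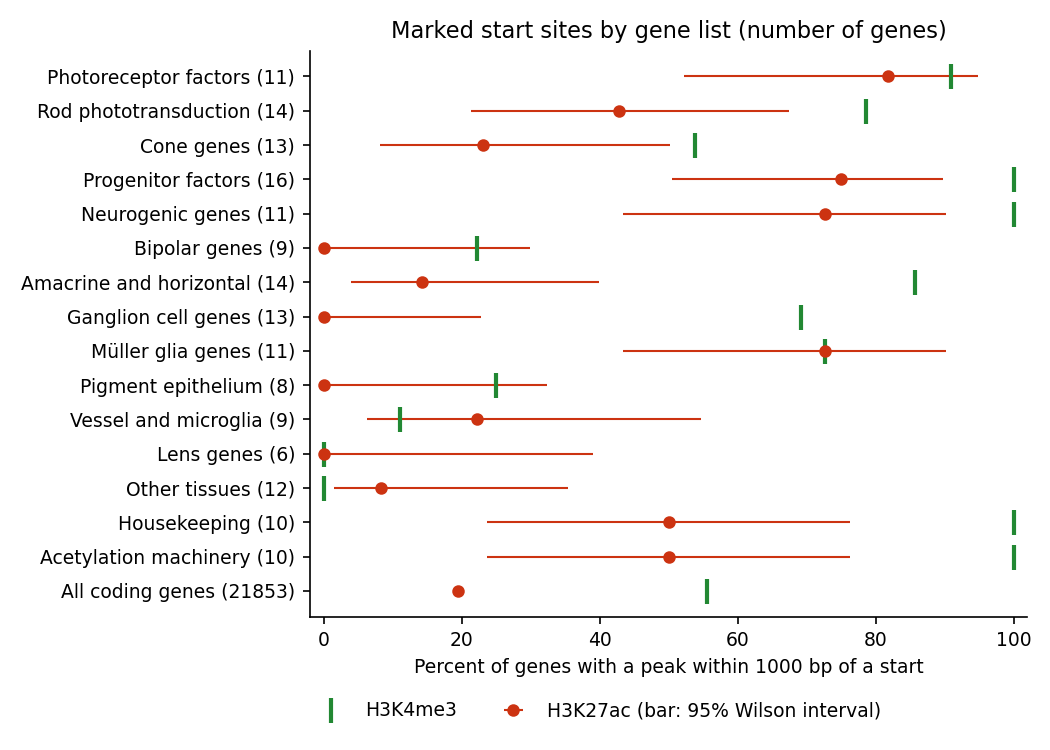
Percent of the genes of each list with a peak within 1000 bp of a coding start, for H3K27ac (points, with 95% Wilson intervals over genes) and for H3K4me3 (ticks); the number of genes stands in brackets. Photoreceptor factors, progenitor factors, Müller glia, neurogenic and rod genes have intervals wholly above the 19.5% of all coding genes. So do genes used in all cells and the writers, erasers and readers of acetylation, so the excess is not particular to retinal lists. The lists were chosen with earlier results of these data known, so the intervals are descriptive and test no difference. Among genes with H3K4me3 at a start 32.4% were acetylated, a share inside the intervals of the rod, all-cell and acetylation lists. Cone genes and vessel and microglia genes lie above 19.5%, with intervals that include it. Bipolar, ganglion cell, pigment epithelium and lens genes are at 0, with intervals that reach past 19.5%.

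Of 8 pigment epithelium genes and 6 lens genes none was marked, with upper limits of 32.4% and 39.0% that include the 19.5% of all coding genes. With start windows of 2000 bp 1 of the 8 pigment epithelium genes was marked. Among 9 vessel and microglia genes, Kdr, the endothelial VEGF receptor (3.06), and P2ry12, a microglial receptor (4.59), had peaks (22.2%). P2ry12 lies inside Med12l, whose region held 48 peaks within 50 kb of the P2ry12 starts, up to a fold of 12.4, so that this peak cannot be assigned to microglia. Of 12 genes of liver, muscle, blood and lymphocytes, the troponin gene Tnnt2 alone was marked (2.82, 17 fragments), a share of 8.33% with an interval of 1.49% to 35.4%. Genes used in all cells were marked in 5 of 10 cases, with Hspa8 (5.67) and Eef1a1 (3.83) highest, although H3K4me3 was present at all 10. Writers, erasers and readers of acetylation were marked in 5 of 10 cases, with the acetyltransferase Kat2b (8.58) and the deacetylase Hdac2 (4.45) highest. Ep300 itself was at 2.60, and Crebbp had none.

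Short motifs were counted in the 301 bp centred on each summit and set beside all windows of that length without unknown bases on the chromosomes. They were TAATCC (OTX/CRX), TAATTA (homeodomain), CAGATG and CAGCTG (E-boxes), TTGGCA (NFI), ACAATG (SOX), AGGTCA (nuclear receptor), TGANTCA (AP-1), CCGGAA (ETS), GGGCGG (GC box) and TGACGTCA (CRE), on both strands, and none contains another. At distal summits the E-box CAGCTG had the largest ratio to all windows, 18.4% against 10.55%, and it was in 21.6% of those in group 10 of fold and 19.8% of those in group 1. AGGTCA was in 20.9% of distal windows against 16.2% of all windows, CAGATG in 25.01% against 21.9%, NFI in 16.1% against 14.5% and SOX in 19.9% against 18.5%. AP-1 was in 9.66% against 8.87%, and the CRE in 0.183% against 0.160%. The OTX/CRX letters were rarer at distal summits than in all windows, 10.3% against 11.9%. They were in 14.0% of the windows of distal peaks that overlapped Otx2, and in 14.5% of windows 300 bp from those summits. In windows centred on the Otx2 summits themselves they were in 18.3%. The GC box was in 29.9% of these Otx2 windows against 2.82% of all windows, and the ETS motif in 11.9% against 2.26%. TAATTA was in 7.86% of distal windows against 10.6%.

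At proximal summits the GC box was in 27.02% of windows and the ETS motif in 13.0%, against 2.82% and 2.26% of all windows, and 3.69% and 2.81% of distal windows. The mean GC content moved with these shares. It was 55.0% in proximal windows, 45.9% in distal windows and 41.7% over the chromosomes, and its part in the motif shares was not tested. In windows centred 300 bp from the distal summits the GC content was 43.6%, CAGCTG was in 15.4%, AGGTCA in 18.7%, TAATCC in 11.15% and TAATTA in 11.1%. The E-box and nuclear receptor letters were thus more frequent at the summit than beside it, and the OTX/CRX and homeodomain letters less frequent.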

How the data were processed

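CUT&RUN was done on P2 mouse retina with antibodies to H3K27ac and with IgG. According to the methods, the authors trimmed reads (per the labels with cutadapt 3.5 and Trim Galore 0.6.4), aligned them to GRCm38 with Bowtie2, removed alignments with a mapping quality of 30 or less, removed duplicates, and called peaks with MACS2 on both replicates jointly against IgG at q 0.05, with mitochondrial and blacklisted regions removed. The deposited fold enrichment is the ratio of the fragment pile-up at the summit to the expected level, each with 1 added. The deposited −log10 p-value and −log10 q-value belong to the same base. Pooling means that a peak carried by 1 library is not marked as such, and read depth per library was not used here.

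From these lists, fragments at the summit were recovered from the fold and the p-value. Distances used GENCODE M21 coding starts, and overlaps required 1 bp. The steps were tested on simulated data, with 0 differences in 6 checks, in Python 3.11.15 with scipy 1.17.1. The members and gene lists were chosen with earlier results of these data known. Named were the 10 proximal and 10 distal peaks of highest fold, the 10 widest, the 10 clusters with most peaks and the 10 with most signal, and for each list the 2 highest starts and the exceptions, to which the remaining list members were added after their values were seen. Sequences came from the RefSeq GRCm38.p6 genome. Alternatives were a stricter q, other distances, gaps and overlaps, and displaced motif windows. Some genes and 1 sequence are not reported here, and the gene list counts leave those genes out.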

Additional observations from a re-analysis of the deposited data

How the results depend on the processing

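No paired analysis was possible because the list holds 1 value per peak for both replicates together, and no replicate was left out for the same reason. With −log10 q of at least 5, 20505 peaks were left, with a median fold of 4.45 and a median width of 920 bp. In them 89.6% of summits were distal, 53.9% of peaks stood in clusters of 2 or more and 5.84% in clusters of 10 or more, the largest cluster held 42 peaks, and the median gap was 24680 bp. Acetylated starts fell to 10.6% of coding genes. With that limit in both lists, the overlap was 11.3% with H3K4me3, 78.8% with H3K4me1, 25.4% with Otx2 and 7.06% with Neurod1. Joining peaks within 500 bp gave a median fold of 3.37 and a median width of 463 bp. The distal share was 90.7% at 2000 bp, 86.1% at 5000 bp, 87.5% with starts of all gene types and 91.8% from the peak edge. Clusters of 2 or more held 65.1% of peaks at a gap of 5000 bp, 84.2% at 20000 bp and 75.6% among distal peaks alone. Clusters of 10 or more held 11.2% and 37.5% at those gaps. Widening the start window to 2000 bp gave 21.1% of genes. Requiring 250 bp of overlap gave 6.54% for H3K4me3, 50.04% for H3K4me1, 12.95% for Otx2 and 2.80% for Neurod1. In windows 300 bp from the summit the shares were 11% for TAATCC, 10.7% for TAATTA, 22.2% for CAGATG, 15.45% for CAGCTG, 15.4% for NFI, 17.7% for SOX, 18.4% for AGGTCA, 8.95% for AP-1, 5.85% for the GC box and 0.248% for the CRE. The cause of these shifts was not tested. Of the gene list counts, those of bipolar, ganglion cell and lens genes were 0 under both alternatives. At the stricter q photoreceptor factors went from 9 to 6, progenitor factors from 12 to 8, Müller glia genes from 8 to 7, neurogenic genes from 8 to 4, rod genes from 6 to 3, cone genes from 3 to 1, housekeeping and acetylation genes from 5 each to 3 and 2, amacrine and horizontal genes and vessel and microglia genes from 2 each to 1, and genes of other tissues from 1 to 0. At 2000 bp amacrine and horizontal genes went from 2 to 4, vessel and microglia genes from 2 to 3, cone genes from 3 to 4, Müller glia genes from 8 to 9 and pigment epithelium genes from 0 to 1.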
